A study of Mus musculus with 7 samples.

Results

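SR proteins and hnRNPs are the main RNA-binding regulators of pre-mRNA splicing, and their genes were followed in livers of old C57BL/6 mice. The members were the rows of the deposited gene table that were annotated as protein-coding and had a gene name beginning with Srsf and a number or with Hnrnp and a letter. This gave 31 of 54532 listed genes, 11 Srsf genes and 20 Hnrnp genes, and left out 2 processed pseudogenes with a matching name. RNA was sequenced in 7 liver libraries of old animals, 3 labelled as on a standard diet after MDL-800 supplementation and 4 labelled as on a standard diet alone, called control here. The compound MDL-800 activates SIRT6, a nuclear deacetylase, through an allosteric site. Dose, route, sex and exact age were not given in the sources used here, and the labels leave it unsaid if the libraries are 7 different mice. The p-values thus rest on library-to-library spread, which may be technical. The comparison addresses whether transcripts of splicing regulators differed between livers of MDL-800 animals and control livers.

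SR proteins carry RNA recognition motifs and a domain rich in arginine and serine, bind mostly to exons and help recruit the spliceosome. hnRNPs coat nascent transcripts, often through RNA recognition motifs, KH domains or glycine-rich regions, and many of them repress splice sites or oppose SR proteins. Many genes of both families limit their own output by splicing in exons that send the transcript to nonsense-mediated decay. In mouse liver, loss of Srsf3 in hepatocytes is known to disturb hepatocyte maturation and metabolism.

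Whole reads per gene could be recovered from the deposited FPKM values (fragments scaled to gene length and to a library size) and summed to 17600066 to 19920469 per library. The library size behind the FPKM values was not this sum. MDL-800 2 had the most summed reads for its size, 1.28 times, and control 2 the fewest, 0.995 times. Where summed reads are named as the denominator below, the sum takes the place of that size. Members took up 0.251% to 0.345% of the reads of a library, and each tested member had between 204 reads (Srsf4, lowest library) and 8242 reads (Hnrnpa2b1, highest library). MDL-800 2 and control 1 held 3514 and 2173 reads of the Y-linked genes Uty, Ddx3y, Eif2s3y and Kdm5d, while the other 5 libraries held 0, so each group held 1 library with Y-linked transcripts. Results are therefore also given for the 5 libraries without such reads (MDL-800 1 and 3 against control 2, 3 and 4) and for the pair with them (MDL-800 2 against control 1). The hepatocyte markers Alb, Apoa1, Ttr, Cps1, Cyp2e1, Serpina1a, Fgb and Tat summed to 59726 to 65059 FPKM in MDL-800 libraries and 58130 to 86932 FPKM in control libraries, so the defining genes of liver were abundant in every library.

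No SR or hnRNP gene passed the test between MDL-800 and control livers, and most values were close together. Of 30 members with a mean of at least 1 FPKM, 0 had a limma adjusted p under 0.05, where 0.0% of the 11394 genes tested did. The lowest adjusted p among the members was 0.95. Srsf6 alone had an unadjusted p under 0.05 in limma, where 4.85% of all genes tested did, and 1.62% did so in the lower direction. limma voom on the recovered reads also called 0 members and left 1 with an unadjusted p under 0.05. The fold changes, on the log2(FPKM + 1) scale, which understates those of low genes, ran from -0.40 for Srsf6 to 0.16 for Hnrnpul2. The log2 fold change was below 0 in 24 members and above 0 in 6, with a median of -0.07, and 45.8% of all genes tested were below 0, with a median of 0.02. Among the Srsf genes 9 of 10 were below 0 with a median of -0.15, Srsf4 at only -0.0017. Among the Hnrnp genes 15 of 20 were below 0 with a median of -0.06. The Srsf median was -0.09 and the Hnrnp median -0.03 without MDL-800 3. With summed reads as the denominator 21 members were below 0 and the median of all genes was 0.05. With voom these values were 21 and 0.06.

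**Figure D1:**
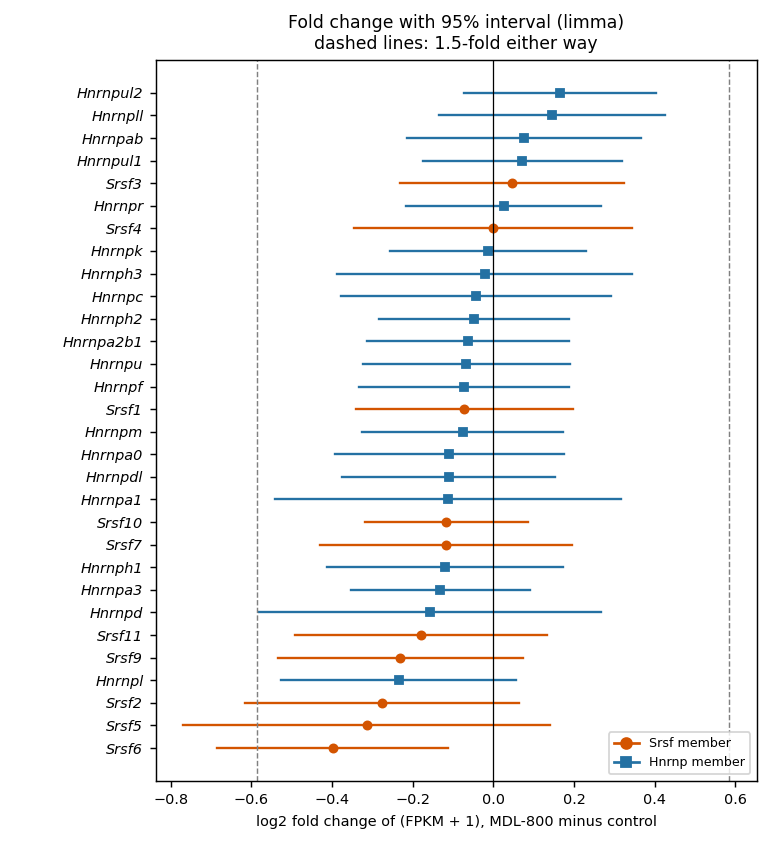
Log2 fold change of (FPKM + 1), MDL-800 minus control (horizontal axis), for each of the 30 members with a mean of at least 1 FPKM. Points are limma estimates and bars their 95% intervals, and dashed lines mark 1.5-fold either way; the Srsf6 interval, from -0.68 to -0.11, is the one that leaves out 0, and the intervals of Srsf5, Srsf6 and Srsf2 cross the lower dashed line.

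The intervals give the range of fold changes left by the spread between libraries, on the log2(FPKM + 1) scale. The 95% interval of the fold change lay within 1.5-fold in both directions for 27 of 30 members, including all 20 Hnrnp genes, against 55.1% of all genes tested. The exceptions were Srsf6, Srsf5 and Srsf2. The widest interval was that of Srsf5, from -0.77 to 0.14 on the log2 scale. The value of 1.5-fold was chosen after the intervals were seen, so the count describes them and is not a test. Among the Hnrnp genes Hnrnpd came nearest to it, with a lower bound of -0.580 against a limit of 0.585 either way. Members also had a higher median level than all genes tested, 17.9 against 5.31 FPKM.

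The 3 members whose libraries did not overlap between the groups were Srsf6 and Hnrnpa3, lower in MDL-800, and Hnrnpul2, higher in MDL-800, where 6.45% of all genes tested did not overlap (2.42% lower and 4.03% higher). The sequences around the start of 2 of them and of Srsf5, the SR gene with the highest level, are shown as background to these genes. No result on expression below uses them. RefSeq promoter windows on GRCm38.p6, most of each lying before an annotated start, matched 29 of 31 members, with 41 windows. Hnrnpul2 was not among the members matched. Capitals mark the letters TGACG (the core of the cAMP response element), GGGCGG (the GC box bound by SP1) and CCAAT on either strand, with matches of a motif allowed to overlap each other.
Srsf6, chr2:162931258-162931557, plus strand: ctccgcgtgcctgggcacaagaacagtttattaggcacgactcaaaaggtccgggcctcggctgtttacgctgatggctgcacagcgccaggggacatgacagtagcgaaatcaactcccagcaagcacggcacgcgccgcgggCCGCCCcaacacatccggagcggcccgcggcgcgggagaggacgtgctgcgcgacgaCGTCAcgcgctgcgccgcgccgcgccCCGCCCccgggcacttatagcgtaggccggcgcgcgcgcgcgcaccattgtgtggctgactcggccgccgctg
Srsf5, chr12:80945249-80945548, plus strand: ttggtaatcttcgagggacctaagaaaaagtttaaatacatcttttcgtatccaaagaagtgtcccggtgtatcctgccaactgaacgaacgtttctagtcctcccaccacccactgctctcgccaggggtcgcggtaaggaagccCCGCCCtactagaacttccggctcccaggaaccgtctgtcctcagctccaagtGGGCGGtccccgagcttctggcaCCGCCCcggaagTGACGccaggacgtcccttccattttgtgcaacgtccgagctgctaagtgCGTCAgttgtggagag
Hnrnpa3, chr2:75659009-75659308, plus strand: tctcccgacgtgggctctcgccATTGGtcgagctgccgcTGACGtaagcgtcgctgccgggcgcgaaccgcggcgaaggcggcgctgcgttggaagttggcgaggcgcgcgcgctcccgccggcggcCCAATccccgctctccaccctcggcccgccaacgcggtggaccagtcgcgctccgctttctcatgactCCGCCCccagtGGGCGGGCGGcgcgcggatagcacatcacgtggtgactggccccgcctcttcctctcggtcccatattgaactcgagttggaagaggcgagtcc

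The Srsf6 window holds TGACG 1 time and GGGCGG 2 times, the Srsf5 window 2 and 3 times, and the Hnrnpa3 window 1 and 3 times. CCAAT lies 2 times in the Hnrnpa3 window and 0 times in the Srsf6 and Srsf5 windows. Across the families TGACG was found in 56.1% of the 41 windows and in 20.8% of all 32851 promoters of the same length, GGGCGG in 82.9% against 35.7%, and CCAAT in 51.2% against 37.4%. Some windows of the same gene overlap, as for Hnrnph1, Hnrnpa2b1 and Srsf4, so a site can be counted more than once. Counted by gene, TGACG was found in 18, GGGCGG in 24 and CCAAT in 17 of 29 genes. Member windows were rich in CpG, with a median of 31 CpG dinucleotides and a range of 7 to 52, against a median of 7 in all promoters, and TGACG and GGGCGG each contain a CpG. These matches are letters in a window and say nothing of binding.

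Srsf6, an SR protein with a pair of RNA recognition motifs that regulates alternative exons, showed the lowest ratio between the groups. Srsf6 (chromosome 2, 162931528 to 162937121, on GRCm38, the build that the coordinates of the deposited table match) stood at 21.1, 20.5 and 18.4 FPKM in MDL-800 1 to 3, against 25.04, 24.4, 26.7 and 30.9 FPKM in control 1 to 4. All 3 MDL-800 libraries lay below all 4 control libraries, and control 4 was the highest. The means were 20.002 ± 1.41 FPKM in MDL-800 (SD, n = 3) and 26.7 ± 2.90 FPKM in control (SD, n = 4). The log2 fold change was -0.40 with a standard error of 0.12, a fold of 0.759 with a 95% interval from 0.622 to 0.925, and the limma adjusted p was 0.95. Its unadjusted p ranked 125 among the 11394 genes tested. The log2 fold change was -0.45 in the 5 libraries without Y-linked reads, and MDL-800 2 lay 0.27 below control 1 on that scale (log2 difference -0.27). With summed reads as the denominator the groups still did not overlap, at 16.02 to 19.8 in MDL-800 and 19.96 to 25.3 in control.

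Srsf5 and Srsf2, the SR genes with the highest deposited FPKM, had negative log2 fold changes with overlapping groups. Srsf5 (chromosome 12, 80945504 to 80950507) stood at 46.7, 47.6 and 55.4 FPKM in MDL-800 libraries, against 45.6, 68.4, 62.2 and 76.7 FPKM in control libraries. Control 1 was the lowest of the 7 and the other 3 controls were above every MDL-800 library. The Srsf5 log2 fold change was -0.31 with a standard error of 0.19, -0.46 without control 1 and -0.21 without control 4. Srsf2 (chromosome 11, 116849901 to 116853094), which encodes SC35, the protein long used to mark nuclear speckles, stood at 24.8, 26.5 and 21.9 FPKM in MDL-800 libraries, against 24.6, 29.3, 30.9 and 34.6 FPKM in control libraries. Its log2 fold change was -0.28 with a standard error of 0.14. Control 1 fell among the MDL-800 values. Within the 5 libraries without Y-linked reads the log2 fold changes were -0.43 for Srsf5 and -0.42 for Srsf2, each with a limma adjusted p of at least 0.90, while MDL-800 2 against control 1 gave 0.06 and 0.10, the opposite sign. Reads of Srsf2 may include some of Mettl23 and Mfsd11, which overlap it on the other strand with a mean of up to 8.52 FPKM, since the cDNA kit named in the labels does not mark strand.

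**Figure D2:**
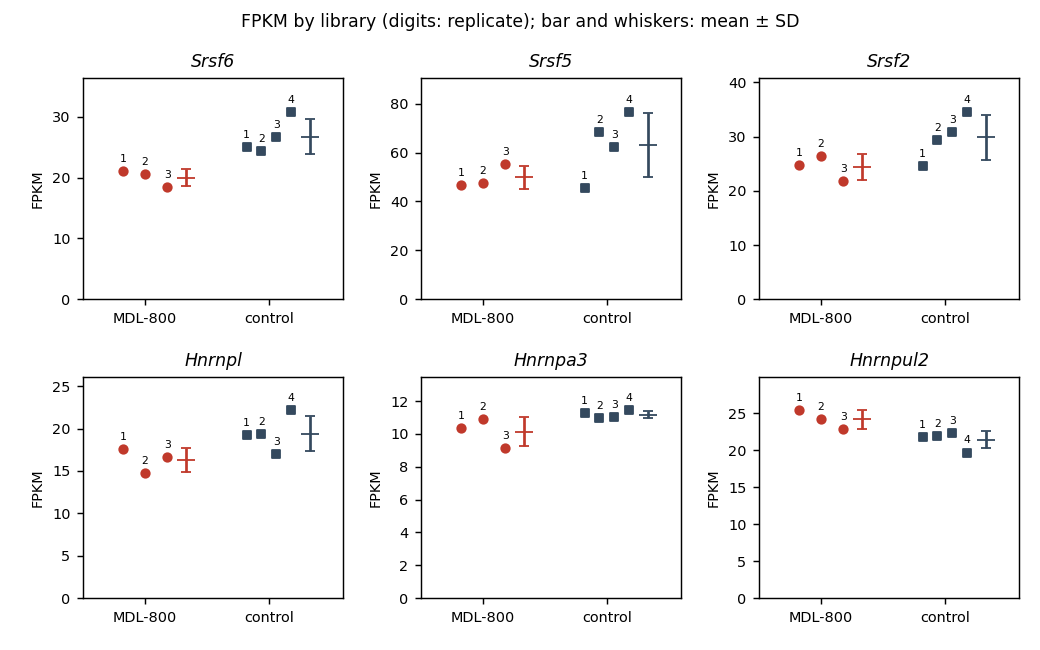
FPKM by library (vertical axes from 0) for 6 members, MDL-800 on the left and control on the right, with the replicate number beside each point and the mean ± SD as a bar with whiskers. The groups do not overlap for Srsf6, Hnrnpa3 and Hnrnpul2, and control 1 falls within the MDL-800 range for Srsf2 and just below it for Srsf5.

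Srsf9, the other SR gene among those with the smallest p, encodes a small SR protein related to Srsf1. It stood at 23.7, 20.1 and 19.8 FPKM in MDL-800 libraries, against 22.4, 28.8, 23.7 and 25.5 FPKM in control libraries, with a log2 fold change of -0.23 and a standard error of 0.13. Its groups overlapped through MDL-800 1, which lay above control 1 and, by a small margin, control 3.

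The remaining SR genes were nearer to 0. Srsf1, the founding SR protein that promotes exon inclusion and shuttles to the cytoplasm, averaged 17.2 ± 1.82 FPKM in MDL-800 and 18.2 ± 1.25 FPKM in control (SD, n = 3 and 4), a log2 fold change of -0.07. Srsf3, the smallest of the family and the one with a known role in hepatocytes, averaged 11.4 ± 0.853 FPKM in MDL-800 and 11.04 ± 1.26 FPKM in control, a log2 fold change of 0.05 with a 95% interval from -0.23 to 0.32. It was the only SR gene above 0, and its sign turned without MDL-800 1 or without control 1. Srsf7, a close relative of Srsf3 with an added zinc knuckle, averaged 16.6 ± 1.87 FPKM in MDL-800 and 18.1 ± 2.11 FPKM in control, a log2 fold change of -0.12. Srsf4, a long SR protein similar to Srsf5 and Srsf6, averaged 4.32 ± 0.353 FPKM in MDL-800 and 4.38 ± 0.903 FPKM in control, a log2 fold change of -0.0017. Its sign turned in 9 of the 18 alternative fits run for it, among them that with summed reads as the denominator and voom. Srsf10, which acts as a splicing repressor when dephosphorylated, averaged 6.65 ± 0.426 FPKM in MDL-800 and 7.29 ± 0.278 FPKM in control, a log2 fold change of -0.12. Srsf11 averaged 8.30 ± 1.38 FPKM in MDL-800 and 9.49 ± 1.003 FPKM in control, a log2 fold change of -0.18. Srsf12 was near the limit of detection, with 2, 3 and 2 reads in MDL-800 libraries and 2, 1, 0 and 0 reads in control libraries. A count of 0 allows up to 0.0673 FPKM in control 3 and 0.0646 FPKM in control 4 with the limit set at 3 reads (counting error alone), so Srsf12 was not tested and no difference was detectable at this depth.

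Summed over the 11 Srsf genes, the level was 182.5, 183.0 and 174.6 FPKM in MDL-800 libraries, against 184.2, 219.8, 214.9 and 234.6 FPKM in control libraries. The groups did not overlap, but control 1 and MDL-800 2, the libraries with Y-linked reads, differed by little. The mean was 180 ± 4.72 FPKM in MDL-800 (SD, n = 3) and 213.4 ± 21.2 FPKM in control (SD, n = 4). Without Srsf5 the sums ran from 119.2 to 135.8 FPKM in MDL-800 and from 138.6 to 157.9 FPKM in control and did not overlap, though they did with summed reads as the denominator. Without both Srsf5 and Srsf6 the sums ran from 100.8 to 114.9 FPKM in MDL-800 and from 113.6 to 127 FPKM in control and overlapped. With summed reads as the denominator the Srsf sums also overlapped, at 142.8 to 171.8 in MDL-800 and 146.9 to 220.8 in control. The 20 Hnrnp genes summed to 492, 475 and 455.5 FPKM in MDL-800 libraries, against 476.8, 494.7, 490.2 and 504.9 FPKM in control libraries, so that the groups overlapped. The ratio of the Srsf sum to the Hnrnp sum, which does not depend on the scaling of a library, was 0.371, 0.385 and 0.383 in MDL-800 libraries, against 0.386, 0.444, 0.438 and 0.465 in control libraries. Control 1 stood closest to the MDL-800 values again. These sums describe the chosen genes and were not tested.

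Among the hnRNP A and B proteins, which bind many introns and untranslated regions and often silence exons, Hnrnpa3 was the one whose groups did not overlap. Hnrnpa3 (chromosome 2, 75659261 to 75669407) stood at 10.4, 10.9 and 9.15 FPKM in MDL-800 libraries, against 11.3, 10.95, 11.03 and 11.4 FPKM in control libraries. The gap between MDL-800 2 and control 2 was small, at 10.88 and 10.95 FPKM, and the groups overlapped with summed reads as the denominator. Its log2 fold change was -0.13 with a standard error of 0.09. Hnrnpa2b1 (chromosome 6, 51460932 to 51469894), the member with the highest level and a reader of modified RNA as well as a splicing factor, stood at 64.8, 64.7 and 59.0 FPKM in MDL-800 libraries, against 66.7, 64.3, 63.4 and 68.2 FPKM in control libraries. The values overlapped and gave a log2 fold change of -0.06 and a standard error of 0.11. Hnrnpa0, which binds AU-rich elements, stood at 50.1, 44.3 and 50.4 FPKM in MDL-800 libraries, against 48.9, 50.96, 50 and 58.9 FPKM in control libraries. Its log2 fold change was -0.11 with a standard error of 0.12. Hnrnpab, which was higher on average in MDL-800, stood at 59.7, 59.4 and 52.4 FPKM in MDL-800 libraries, against 53.0, 52.3, 61.5 and 50.3 FPKM in control libraries. Its log2 fold change of 0.07 had an error (SE) of 0.12, and control 3 was the highest of the 7 libraries. Hnrnpa1, the best known splicing silencer of the family, averaged 23.7 ± 1.67 FPKM in MDL-800 and 26.1 ± 5.74 FPKM in control (SD, n = 3 and 4), a log2 fold change of -0.11. Its controls fell apart into 20.5 and 21.97 FPKM in control 1 and 3 and 30.3 and 31.8 FPKM in control 2 and 4. Hnrnpa1 has processed pseudogenes, so its reads are uncertain to the extent that they map to several places.

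Hnrnpd and Hnrnpdl, both on chromosome 5, whose products bind AU-rich elements and affect RNA decay, had log2 fold changes of -0.16 and -0.11. Hnrnpd averaged 6.78 ± 1.02 FPKM in MDL-800 and 7.75 ± 1.73 FPKM in control, and Hnrnpdl averaged 12.4 ± 0.625 FPKM in MDL-800 and 13.5 ± 1.48 FPKM in control. Hnrnpd was lowest in both libraries with Y-linked reads, at 5.84 FPKM in MDL-800 2 and 5.84 FPKM in control 1, against 6.65 to 9.65 FPKM in the other 5.

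Of the G-run binding hnRNP F and H genes, none stood apart between the groups. Hnrnpf stood at 47.9, 47.7 and 45.2 FPKM in MDL-800 libraries, against 45.4, 50.1, 54.1 and 48.4 FPKM in control libraries, with a log2 fold change of -0.07 and a standard error of 0.11. Hnrnph1 averaged 15.8 ± 1.43 FPKM in MDL-800 and 17.3 ± 1.97 FPKM in control, a log2 fold change of -0.12. Hnrnph2, an X-linked paralog, averaged 15.7 ± 0.557 FPKM in MDL-800 and 16.3 ± 1.19 FPKM in control, a log2 fold change of -0.05. Hnrnph3 averaged 5.52 ± 0.684 FPKM in MDL-800 and 5.67 ± 1.19 FPKM in control, a log2 fold change of -0.02. It had the smallest p of the members for the presence of Y-linked reads, at 6.23 FPKM in MDL-800 2 and 7.37 FPKM in control 1, against 4.62 to 5.47 FPKM in the other libraries. Hnrnpf, Hnrnph1 and Hnrnph2 are close in sequence, so how reads were shared among them is uncertain.

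Hnrnpl and its paralog Hnrnpll, which bind CA-rich RNA, had log2 fold changes of opposite sign. Hnrnpl (chromosome 7, 28808541 to 28822266) stood at 17.5, 14.7 and 16.7 FPKM in MDL-800 libraries, against 19.2, 19.3, 16.99 and 22.1 FPKM in control libraries. The groups overlapped through control 3, and the log2 fold change was -0.23 with a standard error of 0.12. Within the 5 libraries without Y-linked reads it was -0.17, and -0.36 between MDL-800 2 and control 1. Hnrnpll stood at 3.34, 3.27 and 3.13 FPKM in MDL-800 libraries, against 2.98, 2.19, 3.05 and 3.22 FPKM in control libraries. Its log2 fold change was 0.14 with a standard error of 0.12, and 0.06 without control 2, the lowest library. The difference between the paralogs was not tested.

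Hnrnpul2, an hnRNP U-like protein linked to the DNA damage response, was the member with the highest log2 fold change. Hnrnpul2 (chromosome 19, 8819401 to 8834142) stood at 25.4, 24.3 and 22.9 FPKM in MDL-800 libraries, against 21.8, 21.98, 22.4 and 19.7 FPKM in control libraries. All MDL-800 libraries lay above all controls, with a log2 fold change of 0.16, a standard error of 0.10 and a limma adjusted p of 0.95. The log2 fold change was 0.17 in the 5 libraries without Y-linked reads and 0.15 between MDL-800 2 and control 1. With summed reads as the denominator the groups overlapped, at 18.9 to 23.9 in MDL-800 and 16.2 to 22.1 in control. Hnrnpul1 stood at 9.11, 9.45 and 10.3 FPKM in MDL-800 libraries, against 8.31, 9.65, 10.04 and 8.43 FPKM in control libraries. Its log2 fold change was 0.07 with a standard error of 0.10. Hnrnpu, the scaffold protein SAF-A that binds chromatin and RNA, averaged 24.0 ± 1.59 FPKM in MDL-800 and 25.2 ± 1.78 FPKM in control, a log2 fold change of -0.07.

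The other hnRNP genes differed by less than their spread. Hnrnpk, whose KH domains bind C-rich RNA and DNA, averaged 40.6 ± 1.49 FPKM in MDL-800 and 41.0 ± 2.13 FPKM in control, with a log2 fold change of -0.01 that turned positive with summed reads as the denominator. Hnrnpc, which coats uridine tracts and guards against inclusion of Alu-like exons in human cells, averaged 27.6 ± 2.34 FPKM in MDL-800 and 28.7 ± 4.02 FPKM in control, a log2 fold change of -0.04. Hnrnpm averaged 21.5 ± 1.19 FPKM in MDL-800 and 22.8 ± 1.59 FPKM in control, a log2 fold change of -0.08, and overlaps another gene on its own strand whose mean was 9.94 FPKM. Hnrnpr, the member with the lowest tested level, averaged 1.70 ± 0.0791 FPKM in MDL-800 and 1.66 ± 0.179 FPKM in control, a log2 fold change of 0.03.

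**Figure D3:**
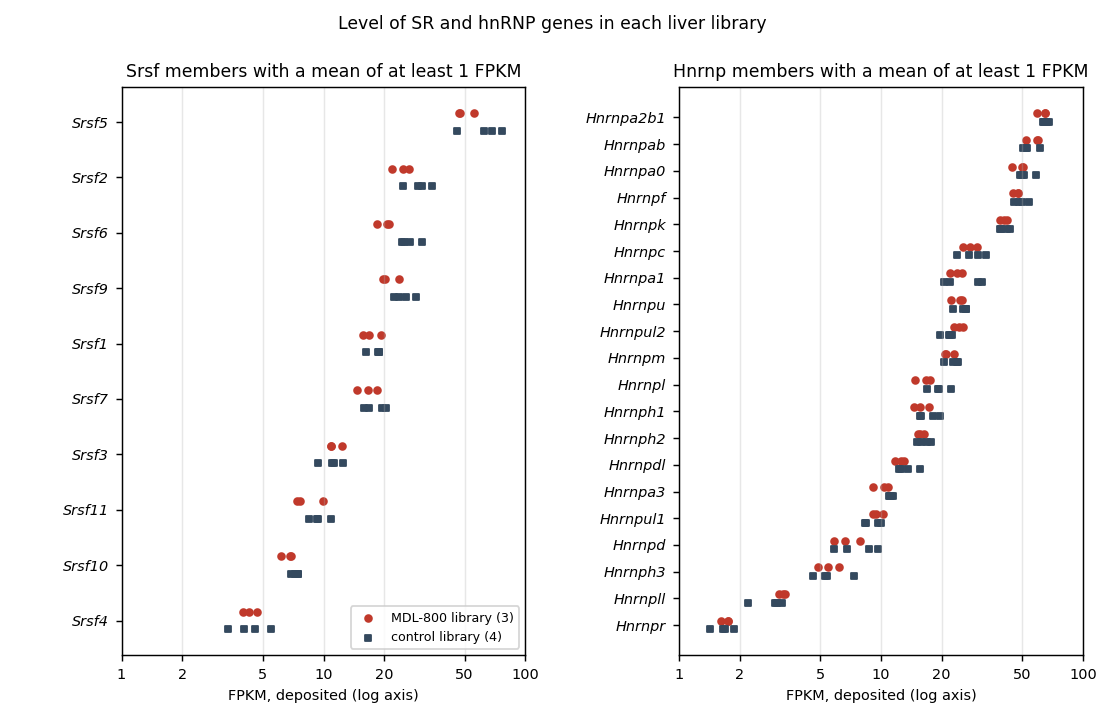
FPKM of the 10 Srsf and 20 Hnrnp genes tested (horizontal log axis), with 1 circle per MDL-800 library and 1 square per control library, ordered by mean level. Levels run from Hnrnpr, with a mean of 1.68 FPKM, to Hnrnpa2b1, with 64.4 FPKM, and the circles of Srsf6 lie to the left of its squares.

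Control 4 held the highest value of 13 of the 30 tested members, and MDL-800 3 the lowest value of 14. The median deviation of the members from their own 7-library mean, on the log2 scale, was 0.08 in control 4 and -0.10 in MDL-800 3, while the median over all genes tested was -0.04 and -0.01 in these libraries. The other MDL-800 libraries were at -0.0052 and -0.0041 and the other controls at -0.04, 0.05 and 0.0032. Control 4 also had the highest sums of the hepatocyte markers, 86932 FPKM, of Malat1 and Neat1, 82.0 FPKM, and of the B and T lymphocyte markers, 62.9 FPKM. It had the lowest sums of the sinusoidal endothelial and stellate cell markers, 14.4 and 20.1 FPKM. The part of these markers in these results was not tested.

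**Figure D4:**
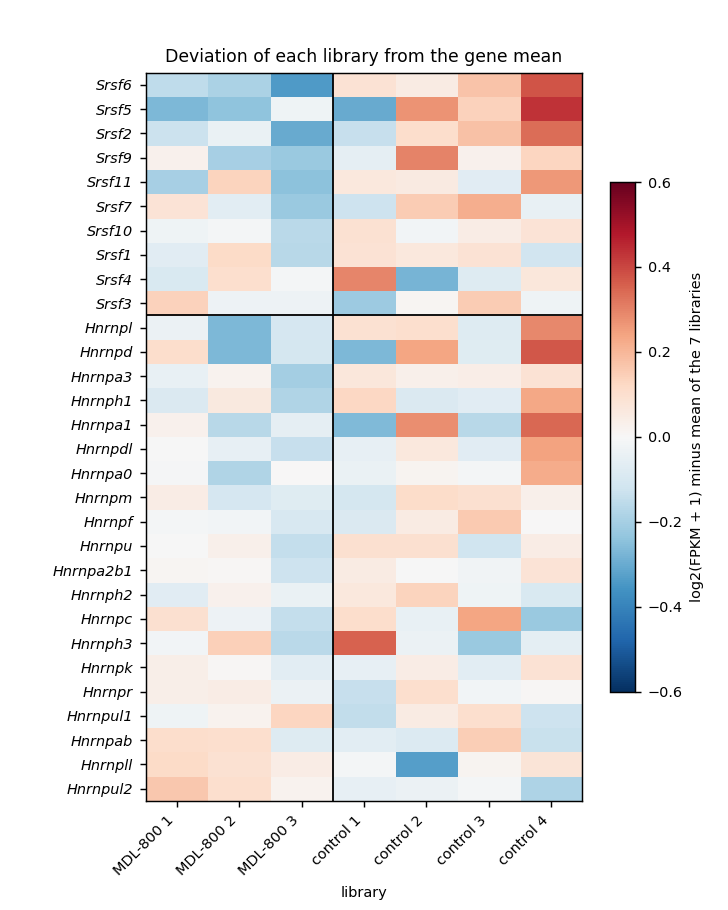
Deviation of log2(FPKM + 1) in each library from the mean of the 7 libraries (colour, from -0.6 to 0.6) for the tested members, Srsf genes above the line and Hnrnp genes below it, MDL-800 libraries left and control libraries right. Control 4 holds the highest value of 13 members and MDL-800 3 the lowest of 14.

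Members varied little between livers. The coefficient of variation over the 7 libraries had a median of 9.43% over the 30 tested members and 19.1% over all genes tested, with a range from 4.28% for Hnrnpk to 20.9% for Srsf5. It was 13.6% for the Srsf genes and 8.14% for the Hnrnp genes by their medians. The members also had a higher median level, 17.9 FPKM against 5.31 FPKM for all genes tested, and counting error is smaller at higher levels. Bulk tissue cannot tell fewer cells of a type from less RNA per cell.

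The libraries with Y-linked reads differed from the others in many genes, and the members are given beside all genes tested. With the presence of Y-linked reads as a term beside the group, 0 of 30 members had a limma adjusted p under 0.05, where 2.42% of all genes tested did, and 2 had an unadjusted p under 0.05, where 22.7% did. These were Hnrnph3, with a log2 difference of 0.35 (limma adjusted p = 0.147), and Hnrnpd, with -0.36 (limma adjusted p = 0.216). limma voom on recovered reads gave 0 and 4 members. The log2 difference was below 0 in 16 members as deposited, with a median of -0.03. With voom it was below 0 in 28 members, with a median of -0.22. Both libraries with Y-linked reads lay outside the range of the other 5 for 6 members, where 32.8% of all genes tested did. The median log2 difference of all genes was 0.08 as deposited and -0.09 with voom, so single directions in this comparison depend on the scaling.

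The gene models bear on how levels between members can be read. FPKM divides by a gene length, which for 28 of the 31 members equals the length of all exons annotated in GENCODE M21. Members have many annotated transcripts that are not productive. In GENCODE M21, 19 of the 31 members had a transcript annotated for nonsense-mediated decay, 9 of 11 Srsf and 10 of 20 Hnrnp genes. Among the 30 tested members this share was 63.3%, against 28.6% of the 10086 protein-coding genes tested. A retained-intron transcript was annotated for 73.3% of the tested members and for 58.8% of those genes. The deposited gene length was set against the length of the transcript with the longest coding sequence. It was 1.58 times that length in the median member and 1.32 times in the median protein-coding gene tested. Srsf1 is the extreme, with 5710 bases of gene length and 1209 bases in the transcript chosen this way. Its mean level of 17.8 FPKM would be 83.9 per kilobase of that transcript, which moves it from rank 16 to rank 5 among the members. Another choice of transcript would give other values. Hnrnpa2b1 and Srsf5 kept ranks 1 and 2, at 245.5 and 153.1 on that scale. This rescaling is the same in every library and leaves the fold changes between groups as they are.

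Gene totals cannot show which isoform was made. A member could have the same total in both groups with another share of unproductive transcripts, and splicing itself was not measured here. Other genes of the table overlap 15 of the 31 members, and 5 overlap a gene with a mean of at least 1 FPKM: Hnrnpab, Hnrnpk, Hnrnpll, Hnrnpm and Srsf2.

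Genes that act with the members were counted in lists, to be read beside all genes tested, of which 45.8% were below 0 with a median of 0.02. The first list holds kinases that phosphorylate SR proteins, which decides where these proteins sit and how they act. Of 9 SR protein kinases 8 were tested, 6 were below 0 and 2 above, with a median of -0.16, and 0 passed. Srpk1 stood at 1.70, 1.40 and 1.33 FPKM in MDL-800 libraries, against 2.02, 1.75, 1.75 and 1.74 FPKM in control libraries (log2 fold change -0.18, standard error 0.11). Its groups did not overlap, as was so for 2.42% of all genes tested in the lower direction. Clk3, a nuclear kinase of SR proteins, averaged 3.21 ± 0.513 FPKM in MDL-800 and 3.78 ± 0.467 FPKM in control, with overlapping groups.

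Of 18 SR-related proteins, which share the arginine and serine rich domain, 15 were below 0 and 3 above, with a median of -0.07, and 0 passed. Acin1, a component of complexes at exon junctions, stood at 6.02, 6.06 and 5.91 FPKM in MDL-800 libraries, against 7.36, 6.94, 6.39 and 7.44 FPKM in control libraries. Its groups did not overlap, at a log2 fold change of -0.20 and a standard error of 0.09. Rsrc1 averaged 2.08 ± 0.207 FPKM in MDL-800 and 1.72 ± 0.159 FPKM in control. The 10 members of the hnRNP family under other names, among them the poly(C) binding proteins and the polypyrimidine tract binding proteins, split into 6 below and 4 above 0, with a median of -0.05. Raly and Pcbp1 had the smallest p there, with log2 fold changes of -0.09 and -0.12, and 0 of the 10 passed.

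Core spliceosome genes were listed alongside. Of 17 tested genes of the U1 and U2 snRNP and of splice site recognition, 15 were below 0 and 2 above, with a median of -0.15, and 0 passed. Snrpa1, a U2 snRNP protein, averaged 3.57 ± 0.346 FPKM in MDL-800 and 4.43 ± 0.382 FPKM in control (log2 fold change -0.25), and Snrpa, the U1 A protein, averaged 9.86 ± 0.619 FPKM in MDL-800 and 12.2 ± 1.44 FPKM in control (log2 fold change -0.28). The groups did not overlap for either gene. The 8 Sm core genes split evenly, with 4 below and 4 above 0 and a median of -0.0031, and Snrpf and Snrpg had log2 fold changes of -0.12 each. Of 13 genes of the U4/U6.U5 tri-snRNP 8 were below and 5 above 0, with a median of -0.02. Prpf31 averaged 2.12 ± 0.223 FPKM in MDL-800 and 2.78 ± 0.420 FPKM in control, and Snrnp200, the helicase of the tri-snRNP, averaged 9.72 ± 0.377 FPKM in MDL-800 and 8.67 ± 0.492 FPKM in control, each without overlap between the groups and in opposite directions.

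Of 17 tested genes among the other splicing regulators, 9 were below and 8 above 0, with a median of -0.03. Khdrbs3 averaged 6.65 ± 0.821 FPKM in MDL-800 and 5.26 ± 0.841 FPKM in control, and Ewsr1 averaged 15.0 ± 1.87 FPKM in MDL-800 and 18.5 ± 3.86 FPKM in control, both with overlapping groups. Of 6 genes for nuclear import and arginine methylation, 2 were below and 4 above 0, with a median of 0.16. Prmt1, the main arginine methyltransferase of hnRNPs, stood at 6.17, 5.77 and 5.74 FPKM in MDL-800 libraries, against 6.74, 7.95, 7.55 and 6.63 FPKM in control libraries, and Carm1 at 3.96, 4.48 and 3.91 FPKM in MDL-800 libraries, against 3.48, 3.19, 3.70 and 3.45 FPKM in control libraries. Neither pair of groups overlapped, and the log2 fold changes were -0.25 and 0.20. Of 14 genes of nonsense-mediated decay 10 were below and 4 above 0, with a median of -0.0084, and Smg9 and Upf1 had log2 fold changes of -0.34 and -0.14.

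Over all 9 lists, 111 of 119 genes were tested, 75 were below 0 and 36 above, with a median of -0.05. Of all genes tested 45.8% were below 0, with a median of 0.02. None had a limma adjusted p under 0.05. At an unadjusted p under 0.05 there were 3 lower and 0 higher genes, where 1.62% and 3.23% of all genes tested were, and the lower ones were Snrpa1, Snrpa and Prmt1. The groups did not overlap for 7 lower and 2 higher genes, where 2.42% and 4.03% were.

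**Figure D5:**
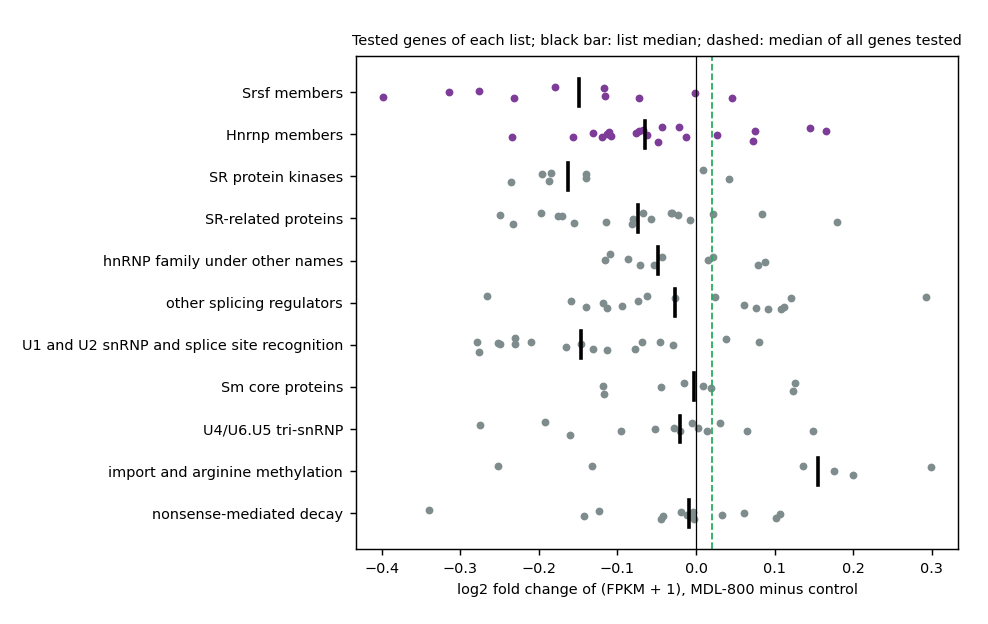
Log2 fold change of (FPKM + 1), MDL-800 minus control (horizontal axis), with 1 point per tested gene of each list, the list median as a black bar and the median of all genes tested, 0.02, as a dashed line. The medians of the Srsf genes, the SR protein kinases and the U1 and U2 list lie at -0.15, -0.16 and -0.15. That of the import and arginine methylation list lies at 0.16.

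Markers of other liver cells differed between libraries and overlapped between the groups. The 9 Kupffer cell and macrophage markers summed to 227.5 to 836.9 FPKM in MDL-800 and 255.8 to 2227 FPKM in control. Neutrophil markers summed to 11.9 to 84.6 FPKM in MDL-800 and 24.1 to 318 FPKM in control, and the 8 B and T lymphocyte markers to 3.46 to 20.6 FPKM in MDL-800 and 8.60 to 62.9 FPKM in control. Sinusoidal endothelial markers summed to 31.6 to 39.1 FPKM in MDL-800 and 14.4 to 43 FPKM in control, stellate cell markers to 43.4 to 70 FPKM in MDL-800 and 20.1 to 61.7 FPKM in control, and cholangiocyte markers to 28.8 to 90.8 FPKM in MDL-800 and 24.2 to 54.8 FPKM in control. Erythroid genes summed to 126.1 to 178.6 FPKM in MDL-800 and 139.1 to 807.4 FPKM in control. The nuclear RNAs Malat1 and Neat1 summed to 49.7 to 63.3 FPKM in MDL-800 and 59.0 to 82.0 FPKM in control, and the 13 protein genes of the mitochondrial genome to 41110 to 58848 FPKM in MDL-800 and 36309 to 56505 FPKM in control. Log2 fold changes of the tested markers were below 0 for 9 of 9 Kupffer cell and macrophage, 4 of 4 neutrophil, 5 of 5 lymphocyte, 1 of 8 sinusoidal endothelial, 0 of 6 stellate, 1 of 3 cholangiocyte, 3 of 5 erythroid and 5 of 8 hepatocyte genes. None of these markers had a limma adjusted p or an unadjusted p under 0.05, and no gene of the lists was at 0 in all 7 libraries. Their part in the values of the splicing factors was not tested.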

How the data were processed

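Expression came as a single table of FPKM values, which the authors deposited for the 7 liver libraries. Tools named per the submitters' processing notes are Cufflinks 2.2.1, TopHat2 2.0.14 and Bowtie2 2.1.0, with mm9 as the build. Chromosome and start nevertheless match GENCODE M21 on GRCm38 for 98.8% of shared identifiers, so coordinates are given as GRCm38. Multiplying FPKM by gene length recovered whole reads, 17600066 to 19920469 in a library.

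MDL-800 minus control was tested on log2(FPKM + 1) with limma 3.58.1 (R 4.3.3, trend), for 11394 genes averaging 1 FPKM or more, and Benjamini-Hochberg adjustment ran over all of them. The fit was tested on simulated data. Alternatives changed the pseudocount, filter, scaling, model and libraries, and included limma voom on recovered reads. Values by library, with log2 fold change and standard error, are given for the 5 members with the smallest p in each direction. The same was done for those with the highest levels of each family. Srsf3, among the 5 above 0, is given by group means and an interval instead. List genes named are those with the smallest p. Members, lists and tests were chosen with earlier results of these data known.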

Additional observations from a re-analysis of the deposited data

Results flagged for a closer look

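Srsf1 in control 4 stood apart from the other controls. Its level was 16.3 FPKM there, against 18.6 to 18.9 FPKM in control 1 to 3. The gap took up 0.878 of the range of the 4 controls, above Dixon's critical value. Of 33 values examined this way 1 was found, and chance alone gives such a gap in about 5% of groups.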

How the results depend on the processing

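No SR or hnRNP gene had an adjusted p under 0.05 in any of 19 alternatives to the treatment comparison. The members with an unadjusted p under 0.05 numbered 1 as reported, 0 with the replicate block and without MDL-800 3, 2 with array weights, and 3 without control 1 and in the libraries without Y-linked reads. Leaving out 1 library at a time gave 0 to 1 called genes among all genes, the 1 appearing without MDL-800 1 and without control 1, and the unadjusted count of all genes, 553 as reported, had its lowest such value, 274, without MDL-800 3 and its highest, 948, without control 1. It was 190 with the replicate block, 305 with a mean of at least 5 FPKM, 946 with array weights and 1083 without a filter. The log2 fold change of Srsf3 turned to -0.011 without MDL-800 1 and to -0.021 without control 1, within a leave-one-out range of -0.02 to 0.10, and the cause was not tested. Of 30 members 24 kept their sign in every alternative run for them, 20 below 0 and 4 above; this was 19 for each but Hnrnpll, with 18, which the minimum of 5 FPKM left out. Srsf6 ran from -0.45 to -0.33, with limma adjusted p from 0.514 to 0.9999. The Hnrnp median ran from -0.09 to -0.03, at the upper end with summed reads as denominator, with voom and without MDL-800 3.

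Deviations of same-numbered libraries from their group means correlated at -0.587, -0.553 and 0.0565. Those of MDL-800 2 and control 1, the libraries with Y-linked reads, correlated at 0.771. Deviations sum to 0 within a group, so these correlations depend on each other and cannot show if the samples were paired. With the replicate block the count of called members was 0, that of all genes 0 and the Srsf6 log2 fold change -0.33; control 4 has no partner and adds nothing to that value.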
